A study of Arabidopsis thaliana with 8 samples.

Results

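*TAA1* and 6 *YUC* genes of auxin biosynthesis (*YUC2*, *YUC3*, *YUC5*, *YUC6*, *YUC8* and *YUC9*) are described here by the PIF3-binding peaks around them. A peak was taken if its summit lay between 10 kb upstream of the transcription start site (TSS) and the end of one of these genes. This rule found 10 of the 6828 deposited peaks, and they fell at 3 of the 7 genes. The peaks came from ChIP-seq of whole seedlings grown in darkness for 2 d at 21°C, after 3 h of white light and 15 min of far-red light. P3M seedlings carry the 35S:PIF3-5xMyc transgene in the pif3-3 null mutant, so that PIF3 is made from a general promoter and not from its own. The study's methods name a His tag on this PIF3 as well. WT seedlings of the same age and growth, without the epitope, were immunoprecipitated with the same anti-Myc antibody. There were 4 libraries of each genotype, each pooled from 4 technical ChIPs, and each P3M library was compared with its like-numbered WT library to give 1 list of peaks. The lists hold values of called peaks, with no value for WT alone, and a region without a peak is one in which none was called at the cutoff.

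PIF3 is a bHLH transcription factor that accumulates in dark-grown seedlings and is degraded after phytochrome is activated by light. PIFs bind the G-box (CACGTG), and PIF3 also binds the related PBE-box (CACATG, which reads CATGTG on the other strand). Both were searched on both strands. The main route to auxin (indole-3-acetic acid) in plants has a pair of steps. TAA1, a tryptophan aminotransferase, turns tryptophan into indole-3-pyruvate, and the YUC flavin monooxygenases turn this into auxin. Auxin made in this way is needed for hypocotyl elongation in shade and warmth, responses in which PIFs take part.

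The peaks formed 3 reproducible sites, upstream of *YUC8*, *YUC9* and *YUC3*. A site is a group of summits less than 100 bp apart that comes from at least 2 replicates, and it is placed at the mean summit. The 101 bases around each mean summit are shown because they hold the motifs closest to the summits. They are from TAIR10.1 (RefSeq), on the plus strand, which is the strand of all 3 genes, with G-boxes and PBE-boxes in capitals.
YUC8, chr4:14192046-14192146: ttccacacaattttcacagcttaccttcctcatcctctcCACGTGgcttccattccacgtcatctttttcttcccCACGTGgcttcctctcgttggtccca
YUC9, chr1:1103307-1103407: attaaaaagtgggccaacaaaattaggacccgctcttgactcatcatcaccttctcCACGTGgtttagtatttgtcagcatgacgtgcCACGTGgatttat
YUC3, chr1:1274145-1274245: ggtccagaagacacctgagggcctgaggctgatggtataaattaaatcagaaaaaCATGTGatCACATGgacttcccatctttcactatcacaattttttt
The *YUC8* and *YUC9* sites each hold 2 G-boxes and no PBE-box, and the starts of the paired G-boxes lie 36 bp apart at *YUC8* and 32 bp apart at *YUC9*. The *YUC3* site holds no G-box but 2 PBE-boxes on opposite strands, with starts 8 bp apart and 2 bases between them. Of all 1064 sites in the series, 72.4% hold a G-box or PBE-box within 100 bp of the mean summit, 532 sites hold a G-box and 22.4% a PBE-box without a G-box.

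The *YUC8* site was present in all 4 replicates, and the *YUC9* and *YUC3* sites were present in replicates 1, 2 and 4. No peak was called at *TAA1*, *YUC2*, *YUC5* or *YUC6* in any replicate. Thus 3 of 7 genes had a site (42.9%), against 10.7% of the 27444 nuclear protein-coding genes taken with the same window. A site in at least 3 replicates was again found at 3 of 7, against 4.66% of all these genes, and a site in all 4 replicates at 1 of 7, against 1.89%. A site with either motif was found at 3 of 7, against 7.94% of all protein-coding genes, and a site with a G-box at 2 of 7, against 5.61%. The 7 genes, which leave out some of the 11 *YUC* genes, were chosen with earlier results of these data known. The shares are therefore given side by side without a test. Within single replicates, a peak lay in the window of 3 of the 7 genes in replicates 1, 2 and 4 and of 1 in replicate 3, against 7.47%, 25.8%, 5.08% and 27.0% of all protein-coding genes in replicates 1 to 4.

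**Figure D1:**
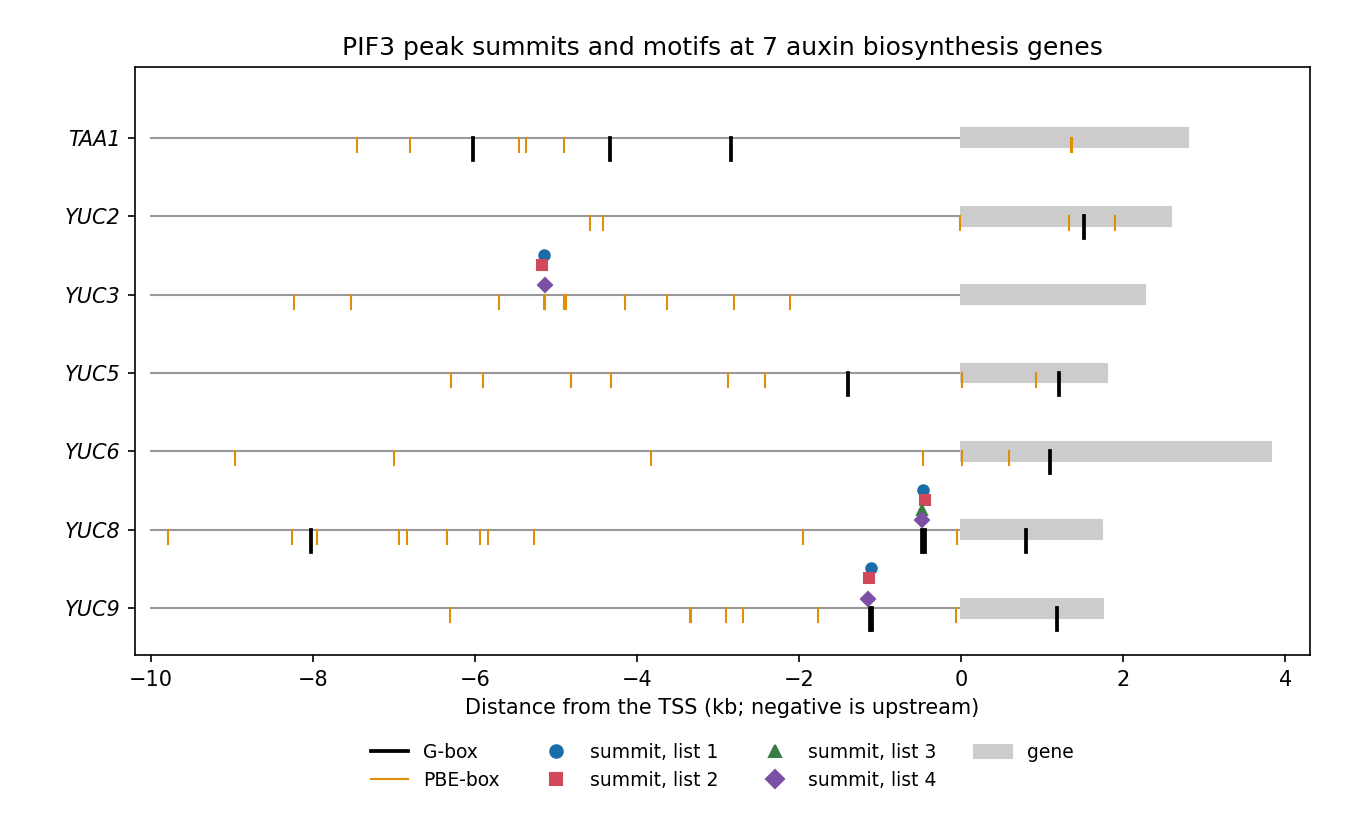
Map of the windows of the 7 genes, with distance from the TSS in kb on the x axis and 1 row per gene. Colored markers are peak summits by replicate list, black ticks G-boxes, orange ticks PBE-boxes and grey boxes the genes. Summits stack above the paired G-boxes of *YUC8* and *YUC9* and above PBE-boxes of *YUC3*, and the other 4 rows hold motifs and no summit.

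*YUC8* (*AT4G28720*, chromosome 4, 14192569 to 14194302, plus strand) had the site closest to its gene, with the mean summit 473 bp upstream of the TSS. The fold of a peak is the authors' MACS value, in which summit tags are divided by the background expected around them, and each replicate has its own scale. It was 6.52, 9.70, 9.11 and 16.77 in replicates 1 to 4. The peaks held 108, 175, 209 and 382 P3M tags. In each replicate the peak was above the median of all peaks, which was 4.80, 4.01, 4.31 and 4.73 in fold and 87, 109, 159.5 and 189 in tags. Across the 4 replicates, the fold averaged 10.52 ± 4.39 and the tags 218 ± 117 (SD, n = 4). These SDs, and those of the fold given below for *YUC9* and *YUC3*, include the difference in scale between replicates. The MACS p-values deposited with these peaks were 1.3e-14, 5.3e-39, 2.6e-35 and 9.7e-126. The deposited false discovery rate was 0% in replicates 2 and 4 and 100% in replicates 1 and 3, and in these 2 lists it is 100% for 673 of 696 and 525 of 526 peaks. Ranked by fold among all peaks of its replicate, the *YUC8* peak stood at 124 of 696, 34 of 2517, 20 of 526 and 29 of 3089. It was thus above 82% of the peaks of replicate 1 and above 96.2% to 99% of those of the others. Among peaks that belong to reproducible sites alone, it was above 74.2%, 95.9%, 95.5% and 97% of the peaks in replicates 1 to 4.

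*YUC9* (*AT1G04180*, chromosome 1, 1104493 to 1106241, plus strand) had its mean summit 1136 bp upstream of the TSS. Its fold was 5.58, 8.74 and 8.84 in replicates 1, 2 and 4, and its peaks held 70, 115 and 185 tags. No peak was called there in replicate 3, the shortest list with 526 peaks. The fold was above the median of the list in each of these replicates, while the tags were above it in replicate 2 and under it in replicates 1 and 4. The fold averaged 7.72 ± 1.85 (SD, n = 3). The deposited p-values were 4.8e-07, 4.3e-18 and 7.6e-29, and the deposited false discovery rates 100%, 12.5% and 41.96%. By fold, the *YUC9* peak was above 66.7%, 98.1% and 92.5% of the peaks of replicates 1, 2 and 4. By p-value it stood lower, above 34.1%, 92.7% and 84.5% of them. Among peaks that belong to reproducible sites alone, its fold was above that of 53.5%, 94.2% and 78.8% in these replicates.

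*YUC3* (*AT1G04610*, chromosome 1, 1279351 to 1281618, plus strand) had the most distant site, with the mean summit 5156 bp upstream of the TSS. A window of 5 kb or 3 kb would leave it out, so that 2 of the 7 genes would have a site, against 6.24% of all protein-coding genes within 5 kb and 4.51% within 3 kb. The limit of 5 kb is the study's own for a PIF3-bound gene, which also needed a motif at the site. The window of 10 kb used here is wider. Its fold was 5.32, 6.39 and 7.24 in replicates 1, 2 and 4, and its peaks held 62, 98 and 166 tags. In each of these replicates the fold was above the median of the list and the tags were under it. The fold averaged 6.32 ± 0.96 (SD, n = 3). The deposited p-values were 6.8e-06, 1.9e-12 and 1.3e-25, and the deposited false discovery rates 100%, 35.22% and 54.5%. The peak was above 61.4%, 91.9% and 86.1% of all peaks by fold in replicates 1, 2 and 4. Among peaks that belong to reproducible sites alone, it was above 46.9%, 77.1% and 64.8% by fold. In replicate 1 its p-value ranked 654 of 696, close to the cutoff of 1e-05.

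The same order of fold, *YUC8* over *YUC9* over *YUC3*, was found in each of replicates 1, 2 and 4, in which all 3 sites have a peak. The fold of *YUC8* exceeded that of *YUC9* by 0.94, 0.96 and 7.93, a mean difference of 3.28 (SD 4.03), and without replicate 4 the mean was 0.95. It exceeded that of *YUC3* by 4.68 on average (SD 4.33, range 1.20 to 9.53), and the fold of *YUC9* exceeded that of *YUC3* by 1.40 (SD 1.06, range 0.26 to 2.35). The means and SDs of these differences also mix the scales of the replicates. Each of these 3 pairs gave p = 0.25 in a two-sided exact permutation test by sign flips (adjusted p = 0.25 over 3 pairs), which is the smallest p that 3 replicates allow. The order therefore held in 3 of 3 replicates, in a design that cannot pass a threshold of 0.05. By tags, the order was the same in each of the 3 replicates.

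**Figure D2:**
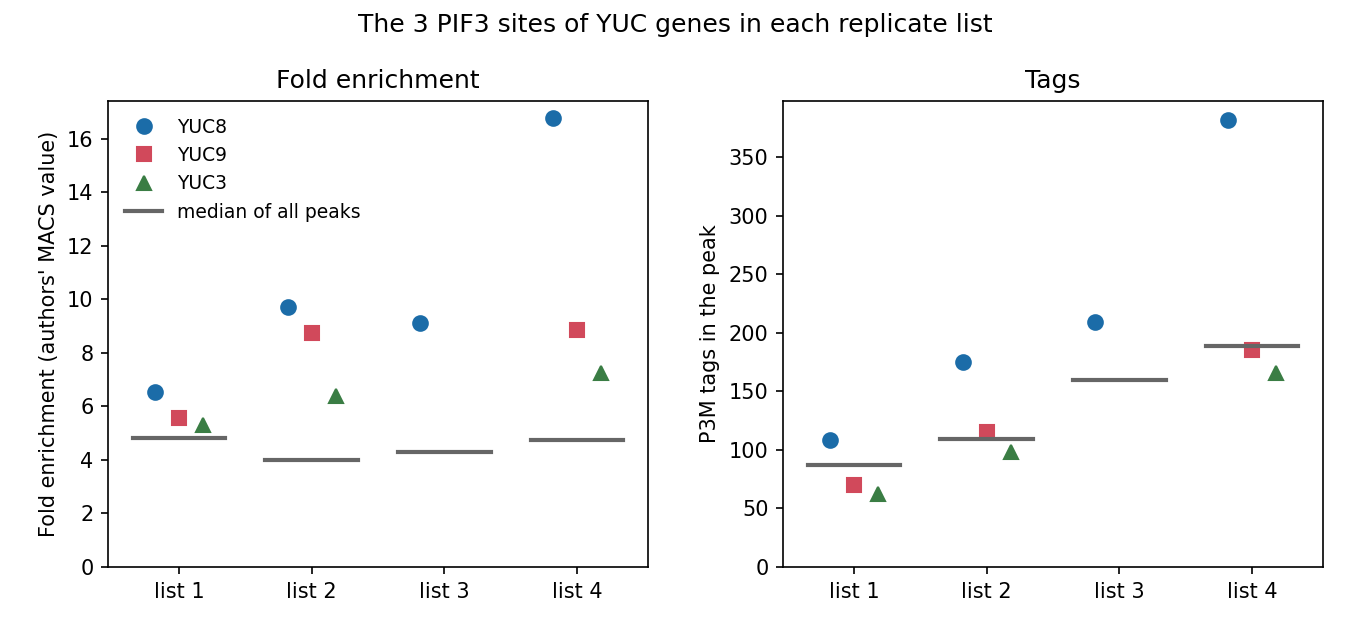
Fold enrichment (left) and P3M tags (right) of the peaks at the *YUC8*, *YUC9* and *YUC3* sites in each replicate list, with a grey bar at the median of all peaks of that list. *YUC8* is the highest in lists 1, 2 and 4, stands alone in list 3 and reaches a fold of 16.77 in replicate 4, while in tags *YUC3* sits under the median of lists 1, 2 and 4, and *YUC9* under that of lists 1 and 4.

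The absence of *YUC9* and *YUC3* from replicate 3 was shared with many sites. Sites in 2, 3 and 4 replicates made up 58.1%, 25.5% and 16.4% of all sites. Of the 1064 sites of the whole series, 141 were present in replicates 1, 2 and 4, 175 in all 4 replicates and 342 in replicates 2 and 4. All 10 peaks around the genes described here belonged to a reproducible site. Over all peaks of replicates 1 to 4, wherever in the genome they lay, 484 of 696, 827 of 2517, 444 of 526 and 994 of 3089 did so. The share for peaks in the windows of all genes was not counted. The outermost summits were 41 bp apart at *YUC8*, against a median of 27 bp over the 175 sites in all 4 replicates. They were 27 bp apart at *YUC9* and 33 bp apart at *YUC3*, against a median of 30 bp over the 141 sites in the same replicates. The peaks were 434 to 636 bp long.

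At *YUC8*, the summits of replicates 1, 3 and 4 lay 5.5, 8.5 and 3.5 bp from the center of the G-box farther from the gene, and that of replicate 2 lay 3.5 bp from the center of the nearer one. The summits at *YUC8* thus fall at both G-boxes. At *YUC9*, the summits of replicates 1, 2 and 4 lay 9.5, 16.5 and 17.5 bp from the same G-box, the one farther from the gene. At *YUC3*, they lay 3.5, 26.5 and 1.5 bp from a PBE-box center, and the nearest G-box was 7108 bp from the mean summit.

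**Figure D3:**
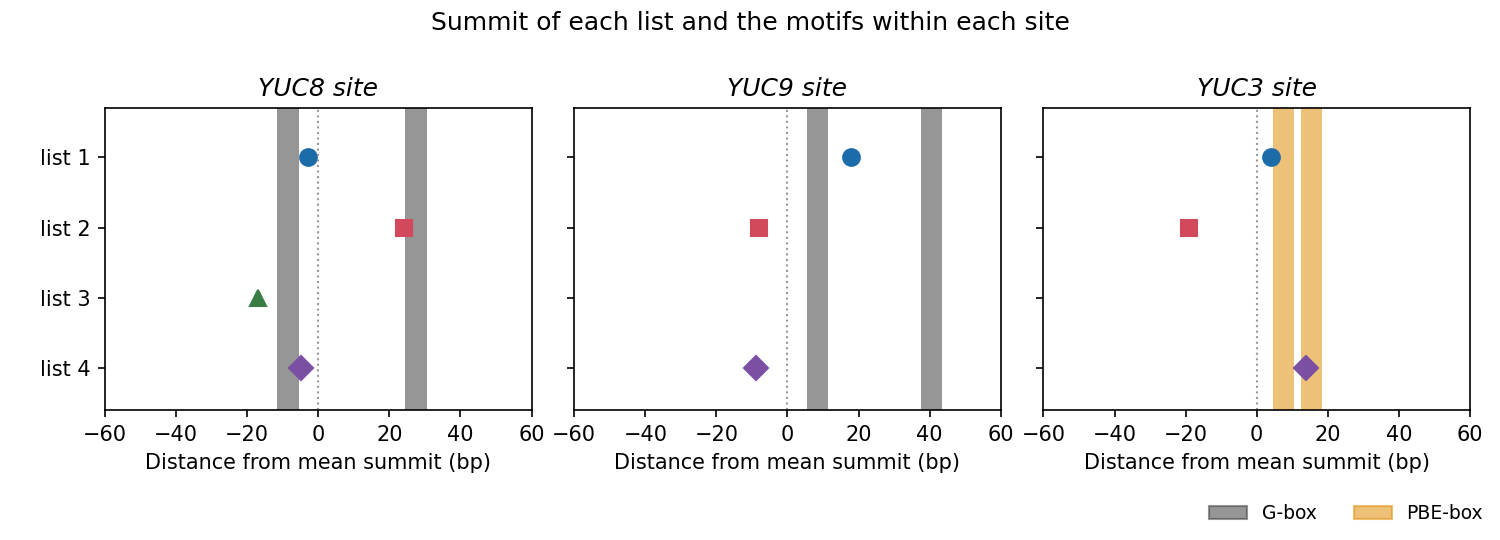
Summits of each replicate list (markers) and the motifs (shaded, G-box in grey and PBE-box in orange) at the *YUC8*, *YUC9* and *YUC3* sites, with distance from the mean summit in bp on the x axis. At *YUC8* the summit of replicate 2 sits on 1 G-box and those of the other replicates at the other.

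None of the 3 sites lay inside an annotated gene, and no annotated gene lay between a site and its *YUC* gene. The gene on the other side of the *YUC8* site was *XIH*, a class XI myosin gene, 9928 bp from the summit and on the same strand as *YUC8*. The gene-free stretch upstream of *YUC8* is 10400 bp long. *XIA*, also a class XI myosin gene, lay 1607 bp from the *YUC3* summit, closer than *YUC3*, but the summit lay past its 3′ end. *EIF2 GAMMA*, which encodes a translation initiation factor subunit, lay 3456 bp from the *YUC9* summit, likewise with its 3′ end toward the site. Of the 2 flanking genes at each site, the *YUC* gene is the one whose TSS faces the site. A myosin gene (*MYA2*) lies upstream of *YUC5* on the same strand as well, and there no peak was called. *MYA2* was noted after the values were seen.

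The sites stood alone. The next reproducible site was 42423 bp from that of *YUC8*, 35648 bp from that of *YUC9* and 64389 bp from that of *YUC3*, where the median distance between neighboring sites in the series is 23296 bp. A single peak of replicate 4 (fold 3.66) lay 3100 bp past the end of *YUC8*, and a single peak of replicate 4 (fold 4.82) lay 4158 bp past the end of *YUC3*. Both are outside the windows. *TAA1* came closest to having a peak among the other 4 genes. The next peak upstream of it, in replicate 4 with a fold of 3.26, lay 10194 bp from the TSS and thus 194 bp outside the window. For *YUC5*, *YUC2* and *YUC6*, the next upstream peaks lay 17229, 34364 and 60341 bp from the TSS.

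The windows of the 7 genes held 14 G-boxes and 56 PBE-boxes. Of these, 4 G-boxes (28.6%) and 2 PBE-boxes (3.57%) lay less than 100 bp from a site, against 5.36% of the 13518 G-boxes and 0.843% of the 54095 PBE-boxes in the windows of all protein-coding genes. The 4 G-boxes are the pairs at *YUC8* and *YUC9*, so they belong to 2 sites and are not independent. The 2 PBE-boxes both belong to the *YUC3* site and are not independent either. *YUC3* has a site and no G-box in its window, while *TAA1* has 3 G-boxes and no peak. The median window held 2 G-boxes and 7 PBE-boxes in the 7 genes, against 1 and 6 over all protein-coding genes.

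All 4 G-boxes at the *YUC8* and *YUC9* sites had the same flanking bases and read cCACGTGg. Over the windows of all protein-coding genes, 10.1% of the 1094 G-boxes with these flanks lay at a site, the highest share of the 10 possible flank pairs counted on both strands. The lowest share was 2.51%, for aCACGTGa. Paired G-boxes were counted over the genome. Of 936 G-boxes outside annotated genes with another G-box less than 50 bp away, 22.8% lay at a site, against 6.24% of 5547 without such a neighbor. Sites with 2 or more G-boxes made up 15.6% of all sites. The flank and spacing classes were chosen after the *YUC* sequences were seen. The counts use the same peaks as the sites and carry no test. The facing PBE-boxes of *YUC3* form a 14-base palindrome. Matches to 2 facing PBE-boxes with any 2 bases between them numbered 13 in the nuclear genome, and 1 of them (7.69%), that of *YUC3*, lay at a site. The exact palindrome occurred 2 times, and 1 of these was that site.

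G-boxes without a peak at *TAA1*, *YUC2*, *YUC5* and *YUC6* are shown next, since they have the same core sequence as those at the sites. Each is 26 bases long from TAIR10.1 (RefSeq), 5′ to 3′ on the strand of the gene, with the G-box in capitals.
TAA1, at -2845 bp from the TSS, chr1:26601998-26602023, plus strand: cgaacctttcCACGTGaatatcacga
YUC5, at -1396 bp from the TSS, chr5:17651759-17651784, minus strand: ccatcctatcCACGTGgttgcatact
YUC5, coding sequence, chr5:17649159-17649184, minus strand: ctctcgtagtCACGTGgagctagtag
YUC2, coding sequence, chr4:7722548-7722573, minus strand: gtttccagtgCACGTGgtggaccggt
YUC6, coding sequence, chr5:8937655-8937680, minus strand: tagttaagcaCACGTGtcattataaa
The *YUC5* promoter G-box has the flanks found at the *YUC8* and *YUC9* sites and lies in the promoter, as they do. The nearest summit of any replicate was 14926 bp from it. Most such motifs have no site. Of 312 G-boxes with these flanks that lie outside annotated genes and within 2 kb upstream of a protein-coding gene, 20.5% lay at a site, against 8.77% of all 4308 G-boxes so placed. The *YUC5* G-box also has no second G-box beside it, unlike those of *YUC8* and *YUC9*. Whether this bears on the lack of a peak was not tested.

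G-boxes in coding sequence had no site at these genes. The *YUC2*, *YUC5*, *YUC6*, *YUC8* and *YUC9* coding sequences each hold 1 G-box, and 0 of the 5 lay at a site. Over the genome, 0.636% of 4246 G-boxes in coding sequence did so, against 8.62% of 6483 outside annotated genes. At *YUC9*, the coding G-box has the same flanks (cCACGTGg) as the pair at the upstream site, and its nearest summit was 2299 bp away. A PBE-box lay close to the TSS of several of the genes, 51 bp upstream at *YUC8*, 63 bp upstream at *YUC9*, 14 bp upstream at *YUC2*, 16 bp downstream at *YUC5* and 8 bp downstream at *YUC6*. None of these was at a site, and the PBE-box of *YUC8* lay 422.5 bp from the mean summit. A site at a PBE-box is rare in general. It was found for 0.843% of the 54095 PBE-boxes in the windows of all protein-coding genes.

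The wider pathway was read from a list of 31 further genes of auxin synthesis and inactivation. Of the 5 other *YUC* genes, 1 had a site. This was *YUC11*, with folds of 5.99 and 7.13 in replicates 2 and 4, at -6684 bp from the TSS. The summit lay in the noncoding part of an exon of *AT1G21400*, and 2 protein-coding genes, *AT1G21400* included, overlapped the stretch up to the *YUC11* TSS. Neither motif lay within 100 bp. *YUC1* had 1 peak in replicate 2 (fold 2.98), and *YUC4*, *YUC7* and *YUC10* had none. Thus 4 of all 11 *YUC* genes had a site, and 3 had one that coincided with a motif. The 4 TAR genes, related to *TAA1*, had no peak in any replicate. Thus *TAA1* and its relatives, 5 genes with 8 G-boxes in their windows, had no site. Of 12 genes of tryptophan synthesis and of other indole routes, 1 (*NIT1*, a nitrilase gene) had a site, or 8.33%. The cytochrome P450 genes *CYP79B2* and *CYP79B3* had none, with 7 and 8 G-boxes in their windows. Over all protein-coding genes, 10.7% had a site, and 5.36% of the G-boxes in their windows lay at one. The lack of a site is thus common, and counts this small do not set these groups apart. Of 10 genes of auxin inactivation, 6 had a site. Over the 31 genes this came to 8, or 25.8%, against the 10.7% of all protein-coding genes given above.

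**Figure D4:**
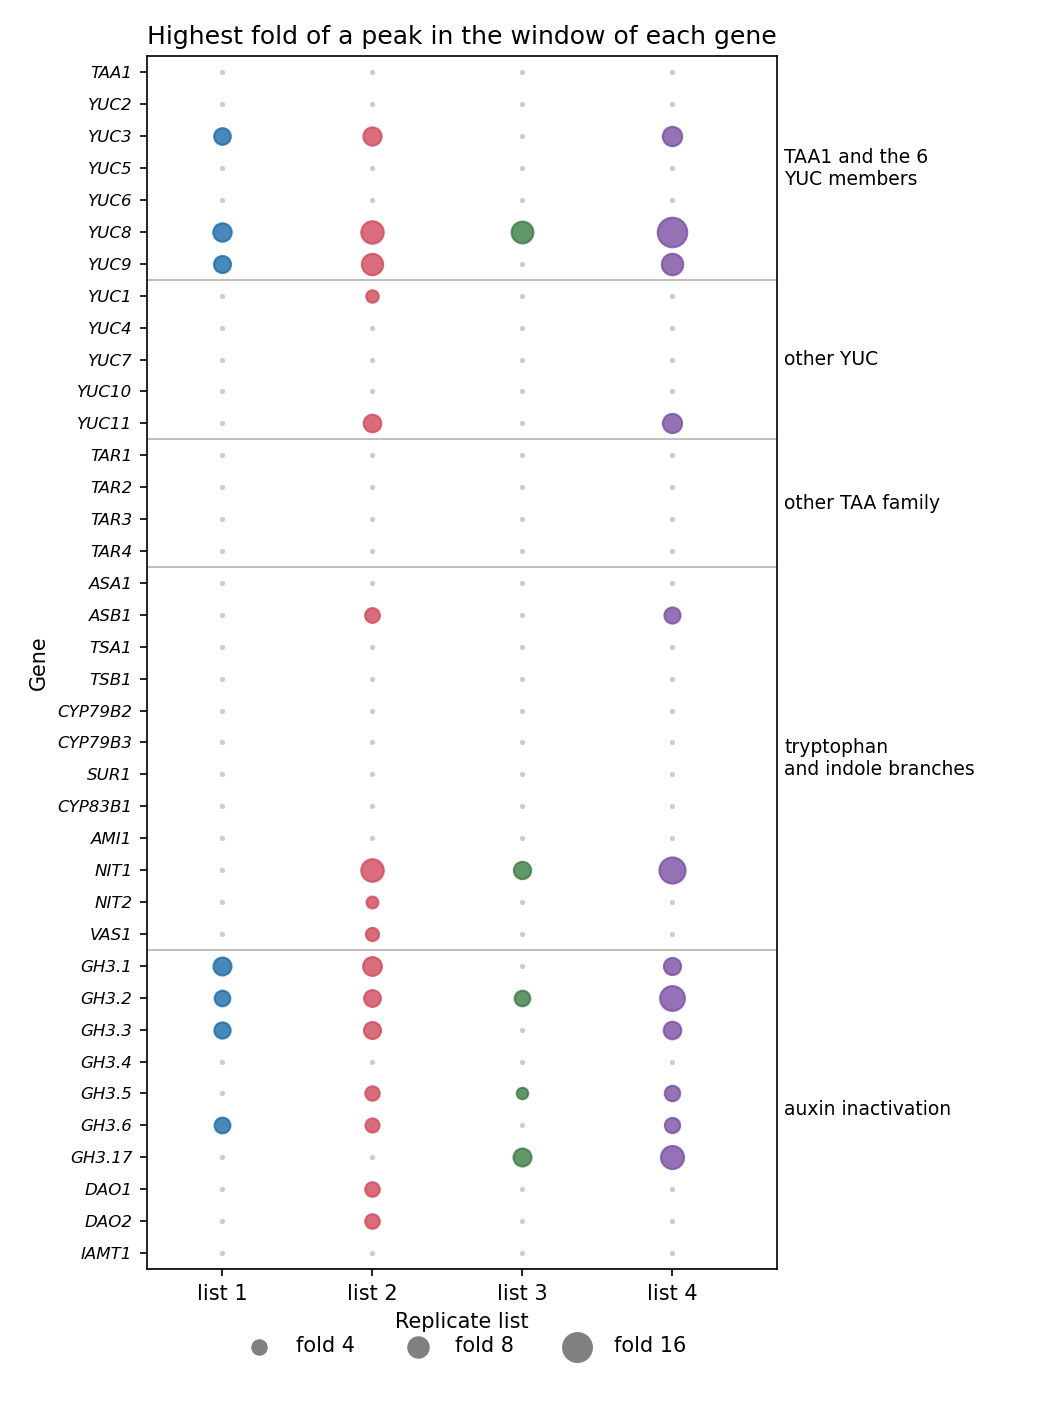
Genes of auxin synthesis and inactivation (rows) by replicate list (columns), with a circle whose area is proportional to the highest fold of any peak in the window of the gene and a grey point where no peak was called. *YUC8*, with folds of 6.52 to 16.77, is filled in all 4 columns, and the *TAA1* and TAR rows are empty.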

How the data were processed

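The submitters' processing notes name CASAVA 1.7.0, Bowtie 0.12.7 and MACS 1.4.0rc2, with reads aligned to TAIR9. The authors called peaks separately in each of 4 replicates, P3M against WT, at a p cutoff of 1e-05. The count of P3M tags in a peak, the fold enrichment (a ratio to the local background), the false discovery rate as a percent and the score (the negative log10 of p, times 10) were used as deposited by the authors. Median tags per peak were 87, 109, 159.5 and 189 in replicates 1 to 4, and library depth is unknown from these lists.

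Sites were made by joining summits of 2 or more replicates that were under 100 bp apart. A motif was at a site if its center lay less than 100 bp from the mean summit. Gene models and sequences were those of TAIR10.1 in RefSeq, whose chromosome sequences are those of TAIR9, with 37899 nuclear genes. All 38 listed auxin loci matched, 34 of them also by symbol; *TAR3*, *TAR4*, *DAO1* and *DAO2* matched by locus alone. Pairs of sites were compared by an exact permutation test. The procedure was checked on simulated data. Alternatives changed the replicates required, peak p, joining distance, overlap, window, motif distance and replicates used. Python 3.11.15, numpy 2.4.6, scipy 1.17.1 and matplotlib 3.10.9 were used.

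The 7 genes and the lists were chosen with earlier results of these data known. Named genes are these 7, listed genes with a site, and neighbors of a site; *YUC1*, *YUC4*, *YUC7*, *YUC10*, *GH3.4*, *CYP79B2*, *CYP79B3*, *AT1G21400* and *MYA2* and the promoter G-box of *YUC5* were added after the values were seen, and *TAR3*, *TAR4*, *DAO1* and *DAO2* are named for their match to the annotation.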

Additional observations from a re-analysis of the deposited data

How the results depend on the processing

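The count of 3 genes with a site, the 3 motif-coincident sites and the 4 G-boxes at a site were the same when 3 replicates were required, with peaks at a p of 1e-10 or lower, with joining distances of 50 or 200 bp, with overlapping peaks and without any one replicate. Several of these settings could not remove a site. Each site was present in 3 or 4 replicates, and its outermost summits were 27 to 41 bp apart. Requiring 3 replicates, leaving 1 out or joining at 50 bp therefore had to keep all 3 sites. Joining at 200 bp or by overlapping peaks had to keep them as well. The next peak lay at least 5306 bp from each site. With 5 or 3 kb upstream, 2 genes (*YUC8* and *YUC9*) and 2 sites remained, and 2 sites counted with the G-box alone. The number of protein-coding genes with a site (2933) moved more, to 1279 with 3 replicates required, 1180 at a p of 1e-10 or lower, 1713 within 5 kb and 1239 within 3 kb, and ranged from 1480 (without replicate 4) to 2610 (without replicate 3) as replicates were left out; it was 1841 without replicate 2. The order of *YUC8*, *YUC9* and *YUC3* kept its direction on tags and on p-values. On log2 folds and with a replicate left out it could not change, because it held in every replicate that has all 3 sites. The size of the differences did move as replicates were left out. Means of *YUC8* minus *YUC9* ranged from 0.95 to 4.44, those of *YUC8* minus *YUC3* from 2.25 to 6.42 and those of *YUC9* minus *YUC3* from 0.93 to 1.98. For P3M against WT values, no paired analysis was possible because each list already sets a P3M library against its like-numbered WT library and gives no values of the 2 genotypes apart. The sites were compared with each other within replicates. Without library totals, folds and tags cannot be compared in size between replicates.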

Other observations

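Of the 10 listed genes of auxin inactivation, the 6 with a site were all *GH3* genes. The listed GH3 enzymes join auxin to amino acids. Of the 7 listed *GH3* genes, 6 had a site (all protein-coding genes, 10.7%), of which 5 coincided with a motif. *GH3* genes outside the list were not counted. *GH3.2* had a site at -35 bp from its TSS in all 4 replicates, with 1 G-box and folds of 4.69, 5.43, 4.67 and 11.82. *GH3.1* (at -849 bp from its TSS) and *GH3.3* (at -184 bp) had sites with 1 PBE-box in replicates 1, 2 and 4, with folds of 6.21, 6.80 and 5.68 and of 5.08, 5.59 and 4.50. *GH3.17* had a site 2 bp past its TSS in replicates 3 and 4 (folds 6.19 and 10.22) with 1 PBE-box. *GH3.6* had one with a G-box in replicates 1 and 2 (folds 4.80 and 3.81), and *GH3.5* one without either motif in replicates 2 and 4 (folds 3.98 and 4.60). *GH3.4* had no peak. The site of *GH3.2* is the other one of the 38 listed genes, besides that of *YUC8*, that was present in all 4 replicates.

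*NIT1*, whose product hydrolyzes nitriles, had 2 sites in replicates 2, 3 and 4. One lay 114 bp inside the transcribed region with 1 G-box and folds of 9.74, 5.03 and 12.34. The other lay at -977 bp from the TSS with 1 PBE-box and folds of 5.22, 5.76 and 13.11. These genes were named because they have a site, and the difference between the lists was not tested.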
